A study of Xenopus laevis with 2 samples.

Results

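The high mobility group (HMG) genes described are hmgn1, hmgn2, hmgn3, hmgb1, hmgb2, hmgb3 and hmga2, looked up in the mRNA of Xenopus laevis retinal ganglion cell (RGC) axons. The members were taken by symbol, after a final L or S had been removed from each gene name, which gave 11 gene names of the 49349 listed. L and S mark the homeologs, the paired copies of a gene that the allotetraploid genome of this frog carries. The family was chosen by the FPKM of the hmgn1 homeologs, which lie among the highest mRNAs of these axons, so all levels below are a description and carry no test. FPKM counts sequenced fragments per length of transcript and per size of the library, and levels of different genes are set side by side on that scale. The cDNA was amplified by a method made for single cells. Whether it covered long and short transcripts evenly was not tested, so folds between genes are approximate.

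The series holds 2 replicate libraries of 1 group, RGC axons with no treatment. For each, 500 whole eyes of stage 33/34 to 37/38 embryos were cultured for 48 hours on a filter with 1 µm pores coated with poly-L-lysine, and with laminin on its lower side. The pores let axons pass, the cell bodies were removed, and the RNA of the remaining axons was amplified as cDNA by PCR. Neither cell bodies nor whole eyes are compared here, so the values say which HMG mRNAs were found in the axon material and not whether axons hold more or less of them than the soma does. Each library pools many embryos, and with 2 libraries the spread is given as both values.

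HMG proteins are abundant nonhistone proteins of chromatin, and they form families that are named for how they bind. HMGN proteins bind the nucleosome itself, loosen chromatin and compete with linker histone H1. HMGB proteins carry HMG boxes, which bend DNA, and an acidic tail. HMGB1 is also known outside the nucleus, where under the name amphoterin it promotes the outgrowth of neurites in rodent neurons. HMGA proteins bind AT-rich DNA through AT-hooks, and HMGA2 is known from mouse as a gene of embryonic and stem cells that the let-7 microRNAs repress.

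Of the 11 HMG gene names, 4 had FPKM over 1 in both libraries, the limit that the study's methods use for gene ontology analysis. They were hmgn1.L, hmgn1.S, hmgn2.L and hmgb2.S. That is 36.4% of the HMG names, beside 4.39% of all gene names, and all 4 were also over 100 FPKM in both libraries, as 0.942% of all gene names were. The family was chosen with its levels known, so nothing is read from these shares. Of the other 7 names, hmgb1.L and hmga2.L had a value in 1 library each, and 5 are listed at 0 in both. By family, 3 of 5 HMGN names, 1 of 4 HMGB names and 0 of 2 HMGA names passed the limit in both libraries.

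**Figure D1:**
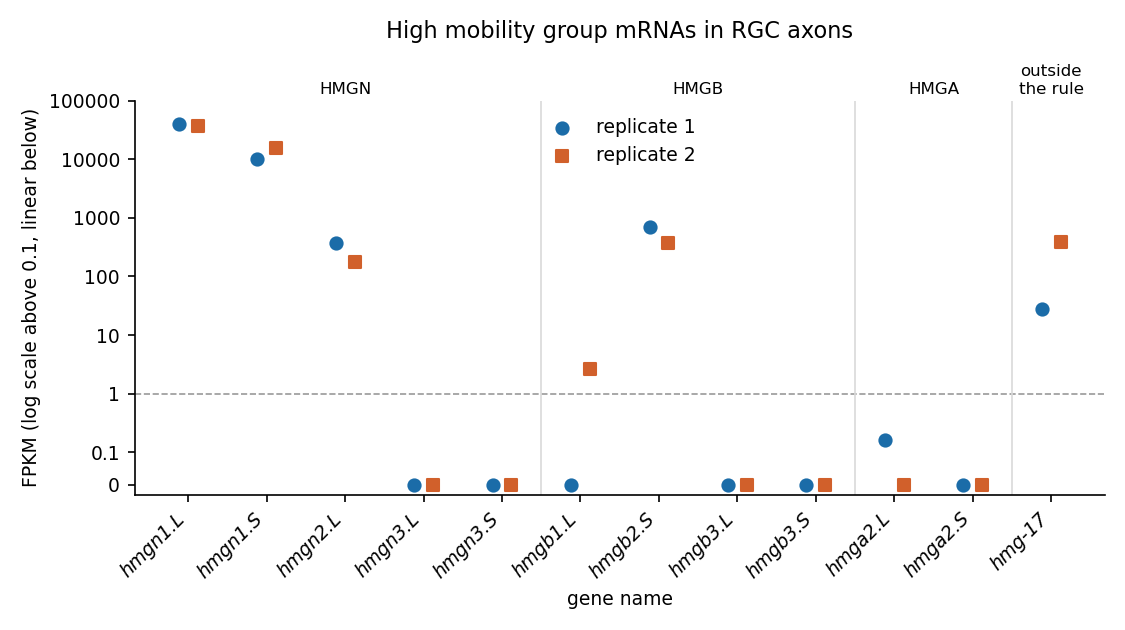
FPKM of each HMG gene name in replicate 1 (circles) and replicate 2 (squares) of the RGC axon libraries, on a log scale above 0.1 FPKM and a linear scale below it, with the limit of 1 FPKM dashed. hmgn1.L and hmgn1.S lie at 10236 FPKM or more in both libraries, hmgn2.L and hmgb2.S between 179 and 700.1 FPKM, and the other member names near or at 0. The row named hmg-17, which the member rule does not take, is drawn apart.

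HMGN1, a nucleosome-binding protein that lowers chromatin compaction, had by far the most mRNA of the family. hmgn1.L had 39659 and 36790 FPKM in replicates 1 and 2, an average of 38225 ± 2029 FPKM (SD, n = 2). It was the second highest of all gene names in both libraries. Only the row that names tagln2.L, coding for the actin-binding protein transgelin-2, was higher, by 1.02-fold in replicate 1 and 1.03-fold in replicate 2. The third name, cirbp.L, coding for a cold-inducible RNA-binding protein, lay 3.19-fold below hmgn1.L in replicate 1 and 1.22-fold below it in replicate 2.

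hmgn1.S had 10236 and 15827 FPKM in replicates 1 and 2, an average of 13031 ± 3953 FPKM (SD, n = 2). It had a rank of 5 in replicate 1 and of 4 in replicate 2. The levels of the homeologs did not overlap between the libraries, and hmgn1.L was the higher in each. The L homeolog was 3.87-fold over the S homeolog in replicate 1 and 2.32-fold in replicate 2, an average log2 ratio of 1.59 ± 0.52 (SD, n = 2). Of the summed hmgn1 signal, 79.5% in replicate 1 and 69.9% in replicate 2 came from the L name. Where homeologs are nearly identical in sequence, a read may fit both, so this split is less certain than the sum.

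Together the hmgn1 homeologs took 8.04% of the summed FPKM of replicate 1 and 7.25% of that of replicate 2. Within the family their weight was larger still, 97.9% of the summed HMG signal in replicate 1 and 99.0% in replicate 2. Compared with the median gene name over 1 FPKM in both libraries, which stood at 27.3 and 31.0 FPKM in replicates 1 and 2, hmgn1.L was 1452-fold and 1185-fold higher. hmgn1.S was 375-fold higher than that median in replicate 1 and 510-fold higher in replicate 2.

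**Figure D2:**
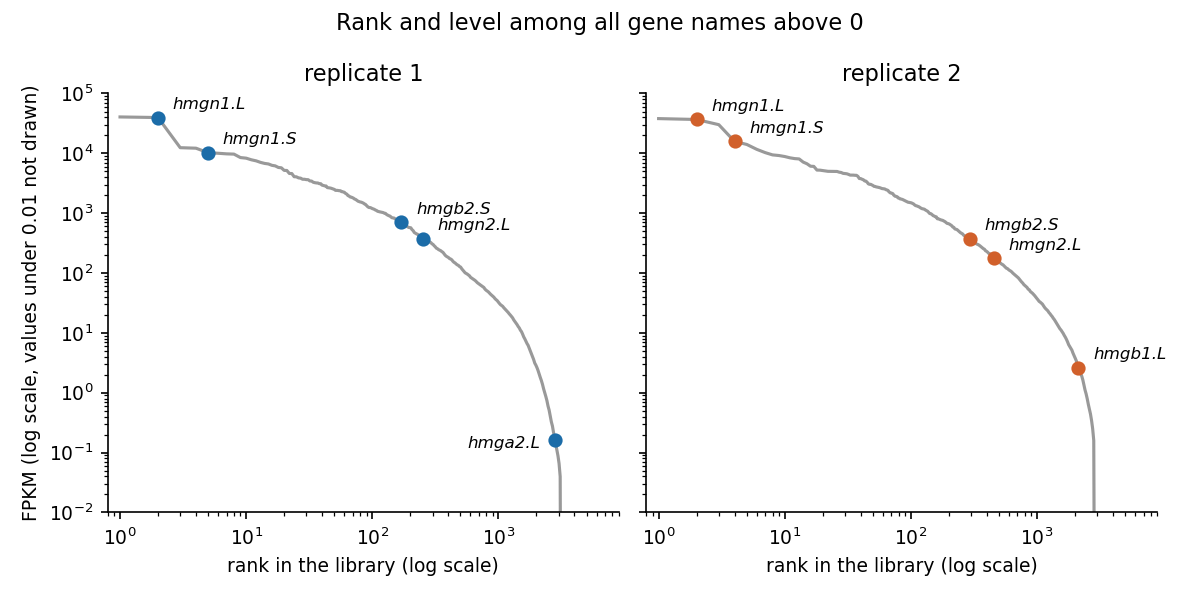
FPKM against rank, both on log scales, for all gene names above 0 in replicate 1 (left) and replicate 2 (right), with the HMG names above 0 as points. hmgn1.L has rank 2 in both panels and hmgn1.S ranks 5 and 4, at the start of the curve, while hmgb2.S and hmgn2.L lie at ranks 170 to 454 and hmgb1.L and hmga2.L near its end.

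The hmgn1 rows have a locus that reaches beyond the gene. In the X. laevis v9.2 genome hmgn1.L is listed on chromosome 2L from position 10851827 to 10897836, a span of 46010 bases, and hmgn1.S on chromosome 2S from 22219720 to 22253971, a span of 34252 bases. Both loci are shared with another gene, wrb, now called get1, which codes for a receptor of tail-anchored proteins at the endoplasmic reticulum. The row wrb.L has the same locus as hmgn1.L, and the row that names wrb.S has the same locus as hmgn1.S. In the gene table of the v10.1 assembly get1 is likewise the direct neighbour of hmgn1 on both 2L and 2S. Both wrb rows are listed at 0 in both libraries, as is a numbered gene model at the hmgn1.S locus. At the shared loci only the hmgn1 rows thus had a value. Whether they hold reads of wrb was not tested. Such sharing was common, since 13234 of all gene names (26.8%) have a row with a locus that another name also has. None of the other 9 HMG names overlapped another row.

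HMGN2, the closest relative of HMGN1 and also a nucleosome-binding protein, was present at a much lower level. hmgn2.L lies on chromosome 2L from 58783674 to 58787496. It had 375 and 179 FPKM in replicates 1 and 2, with ranks of 253 and 454. The summed hmgn1 homeologs were 133-fold and 294-fold above it, far more than the 2.1-fold between its own libraries. Against the median of detected names, hmgn2.L was 13.7-fold higher in replicate 1 and 5.76-fold higher in replicate 2.

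The name hmgn2.S is not among the gene names listed, but a row on chromosome 2S from 63009612 to 63014098 carries the name hmg-17. In the v10.1 gene table hmg-17 is an older name of both hmgn2.L and hmgn2.S, and hmgn2.S lies on 2S. This row falls outside the member rule and was picked after its values were seen. It had 27.8 and 384 FPKM in replicates 1 and 2, a 13.8-fold difference between replicates of the same group. The libraries thus ordered the pair differently, with hmgn2.L 375 and hmg-17 27.8 FPKM in replicate 1, and hmgn2.L 179 and hmg-17 384 FPKM in replicate 2. No direction between the hmgn2 homeologs can be given from these libraries.

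HMGN3, an HMGN protein best known from endocrine tissue and brain in mouse, is listed at 0 in both libraries under both of its names. hmgn3.S lies on chromosome 5S from 72098815 to 72105350, and hmgn3.L on Scaffold28 from 2747706 to 2761140, a sequence not placed on a chromosome in v9.2. A value of 0 under a name does not show that the mRNA was absent, since the estimate can have failed or the signal can stand under another name of the gene. npm1.L, for the nucleolar protein nucleophosmin, is listed at 0 in both libraries, while the row no38, which the RefSeq table gives as another name of npm1.L, had a geometric mean of 4140 FPKM. The same limit holds for every HMG name listed at 0.

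Among the HMGB names, hmgb2.S alone passed the limit in both libraries. HMGB2 is a DNA-bending protein that is high in dividing cells and embryos. hmgb2.S lies on chromosome 1S from 37651895 to 37656619 and had 700.1 and 375 FPKM in replicates 1 and 2, an average of 538 ± 230 FPKM (SD, n = 2), with ranks of 170 and 295. It was 25.6-fold over the median of detected names in replicate 1 and 12.1-fold in replicate 2. hmgn1.S, the next higher member, was 14.6-fold and 42.2-fold above it, so the gap was larger than the spread of either gene.

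hmgb2.S was above hmgn2.L in each library, by 1.87-fold in replicate 1 and 2.1-fold in replicate 2. The lower value of hmgb2.S and the higher value of hmgn2.L were however nearly equal, 375.1 FPKM in replicate 2 and 375.0 FPKM in replicate 1, so across libraries this order does not exceed the spread. Within each library the order of the detected members was thus hmgn1.L, hmgn1.S, hmgb2.S and hmgn2.L. For the last pair it rests on 2 libraries and was not tested.

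HMGB1, the amphoterin of neurite outgrowth, was barely seen under the name hmgb1.L. Its other names in the v10.1 gene table were not looked up. hmgb1.L, on chromosome 2L from 157557459 to 157567793, had 2.63 FPKM in replicate 2, a rank of 2127, and stands at 0 in replicate 1. The value came from the shallower library, and replicate 1, which the steps of low values place at 3.71 times its depth or, scoring almost as high, at 1.85 times, has none. HMGB3, which is known from blood-forming stem cells in mouse, is listed at 0 in both libraries under both names, on chromosome 8L from 36726954 to 36733803 and on chromosome 8S from 64298265 to 64303121. Neither hmgb1.S nor hmgb2.L is among the gene names listed.

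HMGA2, under the names hmga2.L and hmga2.S, was at the lower end of the family. hmga2.L, on chromosome 3L from 49915178 to 49970841, had 0.162 FPKM in replicate 1 and is listed at 0 in replicate 2. hmga2.S, on chromosome 3S from 88444394 to 88503361, is listed at 0 in both. The levels of hmgb1.L and hmga2.L overlap, each with a 0 in 1 library, so these names have no order.

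The libraries agreed to a different degree for each member. On the scale of log2(FPKM + 1), the ratio of replicate 2 to replicate 1 was -0.11 for hmgn1.L, 0.63 for hmgn1.S, -0.90 for hmgb2.S and -1.06 for hmgn2.L. Over the 569 gene names over 1 FPKM in both libraries with a geometric mean over 100 FPKM, the median absolute ratio was 0.70, and 10% of the ratios lay under -0.99 and 10% above 1.72. The median ratio of these names was 0.16. A smaller absolute ratio than that of hmgn1.L was found in 11.1% of them, so before any scaling hmgn1.L was among the more even. hmgn2.L was more uneven than 72.4% of them. With the libraries scaled to the same median, the ratio of hmgn1.L was -0.29, and these shares were not recomputed. Without this scaling, other names of the highest levels had ratios of -0.09 (tagln2.L), 0.21 (rpl23a.L) and 1.28 (cirbp.L). For the row hmg-17 the ratio was 3.74. Ratios over 3 were found in 20 of the 569 names (3.51%) and in 177 of the 2168 names over 1 FPKM in both libraries (8.16%).

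**Figure D3:**
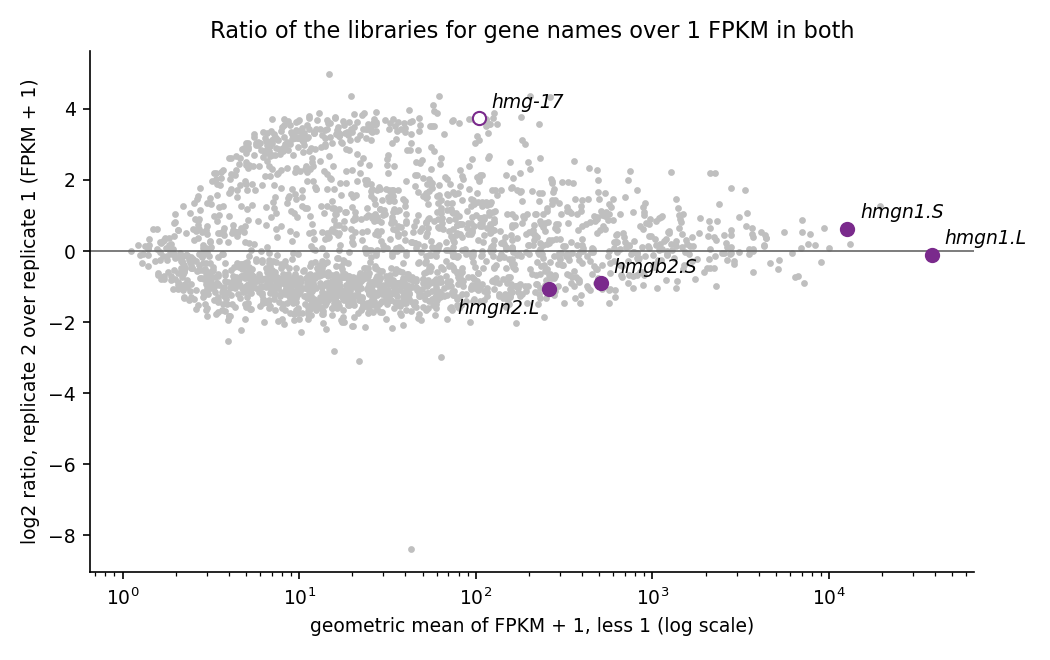
Log2 ratio of replicate 2 to replicate 1 (on FPKM + 1) against the geometric mean level on a log scale, for the 2168 gene names over 1 FPKM in both libraries (grey), with the 4 detected HMG names filled and the row hmg-17 open. hmgn1.L is near 0 at -0.11, hmgb2.S and hmgn2.L sit in the dense lower band at -0.90 and -1.06, and hmg-17 sits in the sparse upper band at 3.74.

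The gene names closest to each detected member by level over the 2 libraries (Euclidean distance on log2(FPKM + 1)) were found among all names. For hmgn1.L it was the row of tagln2.L, at a distance of 0.06, with 40570 and 38061 FPKM in replicates 1 and 2. For hmgn1.S it was rpl23a.L, a ribosomal protein gene, at 0.30, with 12192 and 14080 FPKM. For hmgn2.L it was the row of cdkn1b, an inhibitor of cyclin-dependent kinases, at 0.11, with 348 and 177 FPKM. For hmgb2.S it was a numbered gene model, LOC108699293, at 0.06. With 2 libraries, likeness here means a similar level and library ratio and no more.

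Other genes for proteins with HMG boxes were then looked at, and 19 symbols are listed, under 28 gene names. The list of 23 symbols they came from also held hmgb4 and the genes hmga1, hmgn4 and hmgn5, whose proteins carry no HMG box. None of these symbols is listed. Other HMG-box genes, among them the sox genes and hbp1, were not on the list, so it is only a part of that group. Of the 28 gene names, 7 (25.0%) had FPKM over 1 in both libraries, beside 4.39% of all names. The highest of these 28 was ubtf.L, coding for the upstream binding factor of ribosomal RNA genes. It had 328 and 657 FPKM in replicates 1 and 2, near the level of hmgb2.S. ssrp1.S, a subunit of the histone chaperone FACT, had 54.1 and 19.99 FPKM. The names lef1.L and tcf7.S, for transcription factors of the Wnt pathway, had 2.71 and 33.4 FPKM and 2.39 and 29.3 FPKM. A further row named lef1 had 19.1 and 9.12 FPKM. tox2.L had 47.2 and 21.5 FPKM, and the row of cic.L, for the repressor capicua, 23.5 and 23.8 FPKM. Of the 19 symbols, 11 are listed at 0 in both libraries under every name. They include tfam, the HMG-box protein that packs mitochondrial DNA.

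Partners of HMG proteins at the nucleosome were taken from a list of linker histones, histone chaperones and SET complex members, with 30 symbols of which 26 are listed, under 41 names. Over 1 FPKM in both libraries were 15 names (36.6%), beside 4.39% of all names. npm1 of this list is counted at 0, under the name npm1.L. The row no38, another name of npm1.L, had a geometric mean of 4140 FPKM. It is not a name of the list, so the count and the order below leave it out. Acidic chromatin proteins and chaperones led the list. ptma.S, for prothymosin alpha, an acidic nuclear protein that binds histone H1, had 7061 and 8169 FPKM in replicates 1 and 2, with ranks of 13 and 12. For the SET protein, a histone chaperone and phosphatase inhibitor that joins HMGB2 in the SET complex, set.S had 5174 and 4129 FPKM, and a row that names both homeologs had 1779 and 1243 FPKM.

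The nucleoside diphosphate kinase gene nme2 followed, with 803 and 1593 FPKM for nme2.L and 703 and 768 FPKM for nme2.S. anp32b.L, from a family of acidic histone chaperones, had 1064 and 1338 FPKM. Of the linker histones, with which HMGN proteins compete for nucleosomes, the names over the limit were h1f0.S and h1fx.S. h1f0.S, for the H1 variant of resting cells, had 77.8 and 118 FPKM, and h1fx.S had 13.0 and 8.48 FPKM. h1f0.L and both h1foo names are listed at 0, and the symbols hist1h1c, hist1h1d and b4 are not listed. The level of linker histones as a group is thus not known.

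The other names of the list over the limit were lower than ptma.S, set.S and nme2. Among histone chaperones, a row that names both homeologs of nap1l1 had 99.4 and 326 FPKM, the row of nasp.L had 32.1 and 9.54 FPKM, and npm3.S had 5.24 and 39.2 FPKM. anp32a.L, of the same family as anp32b, had 48.7 and 84.9 FPKM. rbbp4.S, for a histone-binding protein of several chromatin complexes, had 14.3 and 125 FPKM, and ptma.L had 18.9 and 59.5 FPKM. hmgn1.L exceeded ptma.S in both libraries, and the range of hmgn1.S did not overlap that of any name of this list. For FACT, ssrp1 passed the limit while supt16h is listed at 0 in both libraries.

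Outside the nucleus, HMGB1 binds receptors and heparan sulphate proteoglycans. A list for this ligand pathway held 14 symbols, not all of them receptors or proteoglycans. Of these, 12 are listed, under 18 names. In both libraries 5 names (27.8%) passed the limit, beside 4.39% of all names. Of these 5, 4 were syndecans, the cell surface proteoglycans. sdc2.S had 33.0 and 387 FPKM in replicates 1 and 2, sdc4.L 27.5 and 111 FPKM, sdc1.L 42.2 and 29.6 FPKM and sdc2.L 1.65 and 2.01 FPKM. The fifth, cxcl12.L, a chemokine that HMGB1 binds in mammals, had 19.8 and 16.2 FPKM. The genes tlr2 and tlr4, for Toll-like receptors that recognise HMGB1 in mammals, are listed at 0 in both libraries, as are sdc3 and cxcr4. The symbol ager, for the receptor RAGE, is not listed.

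Of the 7 symbols chosen for the let-7 pathway and mRNA binding around HMGA2, 5 are listed, under 9 names. Beside 4.39% of all names, 2 names of this list (22.2%) passed the limit. Both belong to igf2bp3, an mRNA-binding protein, with 3.23 and 20.5 FPKM in replicates 1 and 2 for igf2bp3.L and 23.7 and 9.94 FPKM for igf2bp3.S. lin28a is listed at 0 in both libraries. lin28b.L had 0.0611 FPKM in replicate 1 and is listed at 0 in replicate 2, and lin28b.S is listed at 0 in both.

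**Figure D4:**
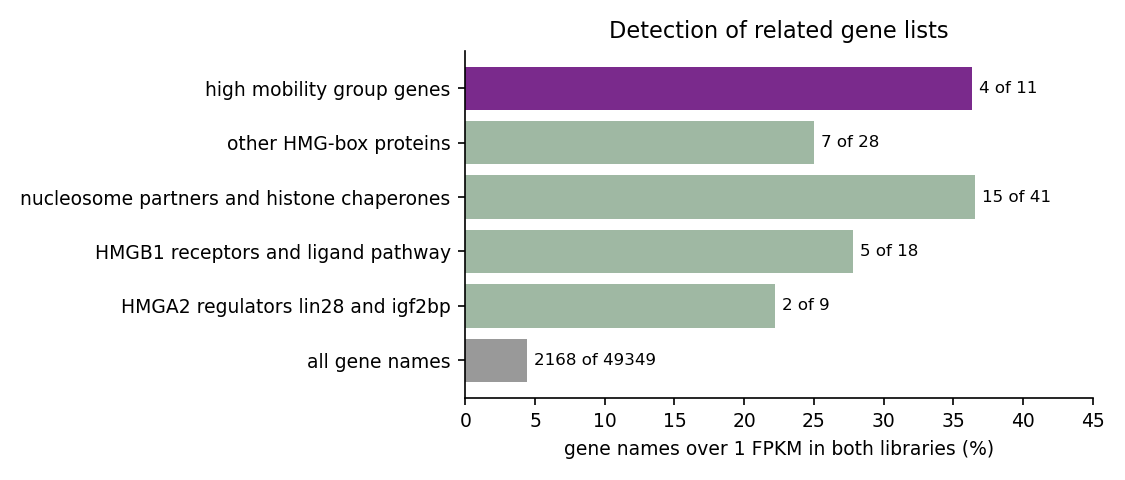
Share of gene names over 1 FPKM in both libraries, in percent from 0, for the HMG genes, the 4 lists around them and all gene names, with the counts at each bar. The lists range from 2 of 9 to 15 of 41 names and the HMG genes stand at 4 of 11, beside 2168 of 49349 for all names. The shares describe these libraries and were not tested.

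Markers of RGCs and of other cells were read beside these levels, since HMG mRNAs are found in most embryonic cells. In bulk RNA, fewer cells of a type and less RNA per cell cannot be told apart. Of 14 markers of RGCs and axons, stmn2 and gap43 passed 1 FPKM in both libraries. By name, 3 of 22 passed (13.6%), beside 4.39% of all names. The list summed to 546 and 841 FPKM in replicates 1 and 2. stmn2.S had 262 and 719 FPKM, stmn2.L 280 and 120 FPKM and gap43.L 2.85 and 3.11 FPKM. The other 12 are listed at 0 in both. They include the transcription factors pou4f1, pou4f2 and isl1, and also rbpms, tubb3, dcx, map1b, nefl and nefm. Most markers of RGCs and axons thus had no value. A 0 cannot be read as absence, so these zeros do not tell axons from cell bodies. As its own check of axon purity, the study reports RT-PCR and immunostaining for factors of the soma and nucleus.

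HMGB2 is high in dividing cells, so their markers matter most for this family. Of the 8 markers of proliferating cells, pcna passed the limit. It had 149.96 and 74.3 FPKM in replicates 1 and 2 on a row that names MGC53867 with pcna.L. By name, 1 of 16 passed (6.25%), near the 4.39% of all names, so nothing is read from this count. A further row named pcna.L alone is listed at 0 in both libraries. The log2 ratio of the first row between the libraries was -1.003, beside -0.90 for hmgb2.S. Both rows had a geometric mean over 100 FPKM. Among the 569 such names over 1 FPKM in both libraries, 10% lay under -0.99. Among all 2168 names over 1 FPKM in both libraries, 10% lay under -1.35, so how common such ratios were depends on the set. The likeness of the 2 ratios was not tested. The other proliferation markers were at or near 0. Of these, mcm2, mcm5, top2a, ccnb1 and ccna2 are listed at 0 in both libraries. In replicate 2, mki67 had 0.12 FPKM and cdk1 0.86 FPKM. Of the retinal progenitor markers reported here, pax6 passed, with 97.5 and 91.1 FPKM for pax6.L and 39.7 and 13.4 FPKM for pax6.S, which sum to 137 and 104 FPKM. The markers sox2 and rax are listed at 0. The summed level of the proliferation list was 149.96 and 75.3 FPKM in replicates 1 and 2. This sum does not give the HMG mRNA of dividing cells. The part of such cells in the levels of hmgb2.S and the hmgn genes was not tested.

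Of the markers of Müller glia, photoreceptors, pigment epithelium, connective tissue, lens and blood, those over 1 FPKM in both libraries were glul and rlbp1 of the 4 for Müller glia, dct of the 4 for pigment epithelium and col1a1 of the 4 for connective tissue. By name, 2 of 8 (25.0%) passed for Müller glia, 1 of 8 (12.5%) for pigment epithelium and 2 of 6 (33.3%) for connective tissue. The share over all names was 4.39%. These lists summed to 22.2 and 63.7 FPKM in replicates 1 and 2 for Müller glia and 86.8 and 63.9 FPKM for pigment epithelium. For connective tissue the sums were 31.2 and 30.6 FPKM. The photoreceptor list summed to 0.324 and 0.410 FPKM, and all lens and blood markers listed stand at 0. Other markers of the same lists are at 0 in both libraries, among them slc1a3 of Müller glia, rho, rpe65 and dcn. The lists of Müller glia, pigment epithelium and connective tissue thus hold markers over the limit and markers at 0. Marker levels do not give the HMG mRNA of such cells, and the part of these cells in the HMG levels was not tested.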

How the data were processed

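RNA was sequenced from RGC axons of cultured Xenopus laevis eyes in 2 libraries. The authors amplified the cDNA by PCR and deposited FPKM values for each library, which Cufflinks 2.1.1 estimated from reads that HISAT2 2.1.0, with default parameters, had placed on the v9.2 genome. The gene annotation is not given in the sources used here.

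Rows that share a gene name were added up (415 names stand on more than 1 row). Each HMG name has a single row. A rank of 1 is the highest FPKM, and log ratios use a pseudocount of 1 FPKM. Locus starts count from 0 in the files, where 263 rows start at 0, so 1 was added. Names of neighbouring genes came from a RefSeq table of the Xenopus_laevis_v10.1 assembly, without its coordinates.

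Total depth is unknown, since FPKM holds no counts, and no counting interval could be given. Among the 621 names with low values (over 0 and under 5 FPKM in both libraries), steps of whole reads gave a depth of replicate 1 that was 3.71 times that of replicate 2. A depth of 1.85 times scored almost as high, and in both cases replicate 1 is the deeper. PCR amplification adds error that depth does not show.

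The members and gene lists were chosen with earlier results of these data known, and no test was made. Named genes were all members, the nearest name to each detected member, and list and marker genes over 1 FPKM in both libraries. The rows hmg-17 and no38 and the genes listed at 0 were named after their values were seen. Alternatives were the detection limit, the pseudocount, the scaling, the handling of rows, homeologs and numbered gene models, and leaving out each replicate. The reading of ranks, sums and relative depth was tested on simulated data, with a depth near the one read here among those set. The simulation had no PCR step, so it does not show how well relative depth is read from amplified libraries. Python 3.11.15, numpy 2.4.6, pandas 2.3.3 and matplotlib 3.10.9 were used. The planned protein sequence features were not computed, and 1 marker gene is not reported here.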

Additional observations from a re-analysis of the deposited data

How the results depend on the processing

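The 15 results were recomputed under 56 alternatives. With 2 libraries, leaving one out always moves an average by less than its SD, so those values say nothing about stability. The share of summed FPKM, 7.77% on average, was 9.70% with the 10 highest other names left out of the total, and 0.125% with hmgn1 left out, so it rests on that gene. In single libraries it was 7.33% and 8.21%. Counting the hmg-17 row, an alternative added after the values were seen, gave 5 detected names and a share of 7.80%. The average of hmgn1.L, 38225 FPKM, became 25628 FPKM with homeologs averaged and 51256 FPKM with homeologs summed. With the libraries scaled to the same median its log2 ratio moved to -0.29. The rank of hmgn1.S was 4 to 5 in single libraries. Leaving out replicate 1 brought hmgb1.L over the limit, 5 names in place of 4. No paired analysis was possible because the series has 1 group. Low values in replicate 2, the shallower library, are the least certain, and 0 cannot be read as absence.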
